A study of Mus musculus with 6 samples.

Results

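In the developing mouse retina, 106 genes had their highest level at postnatal day 6 (P6) and stood lower at every earlier stage and again at P21. They were chosen by these levels: the tags of each gene were scaled to the total tags of a column (as CPM), and a gene was taken if its P6 CPM was at least 1.5 times that of each of the other 5 stages, in the first column of every stage (R1) and again in the second (R2), with at least 50 tags at P6. They are 106 of the 14419 genes that had a poly(A) site, and 0.996% of the 10645 genes that reached the tag minimum at P6. Their P6 level against the other stages is therefore given as a description, without a test.

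The samples were retinas of C57BL/6J mice at embryonic days E13.5, E15.5 and E18.5 and at P0, P6 and P21, with 1 sample at each stage and no genotype or treatment beyond the strain. How many animals were pooled and their sex were not given in the sources used here. PA-seq captures the 3′ ends of polyadenylated RNA with an anchored oligo(dT) primer and keeps strand, so a tag marks the 3′ end of a transcript and levels were not divided by gene length. Each stage has 2 columns whose meaning is not stated. They were added for the values below, and no value has a replicate. All intervals are 95% intervals that cover counting error only, since PCR reads are not independent molecules.

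The first postnatal week is the time at which the mouse retina finishes its last divisions. Late progenitors then leave the cell cycle to become rods, bipolar cells and Müller glia, the synaptic layers form, and astrocytes and blood vessels spread over the inner surface. By the third week the eyes are open and photoreceptors have grown outer segments. In whole tissue, a larger share of cells of a type and more RNA per cell cannot be told apart.

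The libraries held 3286158 tags (P0) to 4656153 tags (E18.5), with 4109941 at P6, and at least 96.3% of the tags of each fell in genes. A count of 3 tags corresponded to 0.644 to 0.913 CPM. Lens genes, which mark tissue next to the retina, summed to 305 CPM at P6 and to 5712 CPM at P0, with 3976 CPM at E15.5, 1292 at E13.5, 1077 at P21 and 581 at E18.5. Their part in the P6 levels was not tested. Without the P0 library in the rule, 127 genes qualified in place of 106, and without E15.5, 110.

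A main 3′ end at P6 is shown for each of 9 genes on which the values below turn. Each sequence is the last 30 bases of annotated transcript up to the site, 5′ to 3′, with the poly(A) signal hexamer nearest the end in capitals. On the plus strand of GRCm38, the sites lie at chr11:114720955-114720977 for Ttyh2, chr7:130985630-130985656 for Htra1 and chr6:49829485-49829505 for Npy. On the minus strand they lie at chr7:120186385-120186411 for Crym, chr10:130268152-130268180 for Neurod4, chr2:150680705-150680722 for Vsx1, chr4:139737059-139737078 for Pax7, chr5:138264934-138264961 for Gal3st4 and chr4:53030795-53030815 for Abca1. The Pax7 site lies 3 bases past the annotated end of the gene and the others lie in annotated 3′ UTRs. Vsx1 has further sites. The one shown (165 tags at P6) stood only 1.21-fold above the next highest stage, and the others 1.78, 3.09 and 3.61-fold.
Ttyh2: cctcccccagaAATAAAccacttcccttaa
Htra1: gtttcagctATTAAAatacttcttcatacg
Npy: gtgtgtttaAATAAAgtaccatgcattcaa
Crym: tctctctgaAATAAAtcatttccacttctt
Neurod4: ccagtagcAATAAAgctttgagtgttatta
Vsx1: aaataaAATAAAaatcactattcacaacta
Pax7: actgttatacattaaaagaaATTAAAaaca
Gal3st4: ttggatgAATAAAtgctacgaaacgtttac
Abca1: gagtcacaaAATAAAgctgtgacagtcctg

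A signal of this kind preceded most of the strongest sites. Of the 94 genes whose strongest site at P6 had 40 bases of annotated transcript before it, 63 (67.0%) had AATAAA there, 20 (21.3%) had ATTAAA without it and 11 (11.7%) had neither. Over 10294 genes with the tag minimum and such a window these shares were 70.7%, 15.9% and 13.5%. The strongest site lay at most 10 bases from the annotated gene end in 73 of the 106 genes.

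At P6 the 106 genes held 12.2 to 414 CPM, with a median of 41.4. Their summed level over the 6 stages in order was 1829, 2251, 3197, 3352, 8914 (P6) and 3688 CPM. The levels before birth and at P0 were low, and P21 was close to the perinatal level in sum. The median of the ratio of P6 to the next highest stage was 2.13, from 1.54 to 25.3. It was 2 or more in 60 genes, 3 or more in 29 and 5 or more in 10, and its interval reached below 1.5 in 44. Nearest to the threshold inside, with lowest ratios over the columns of 1.5083 to 1.5271, were Phactr1, Tbc1d9, Insm1 and Tpt1-ps6, and just outside stood Sez6, Borcs8, Cdh8 and Csrnp2 with 1.4997 to 1.4956.

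**Figure D1:**
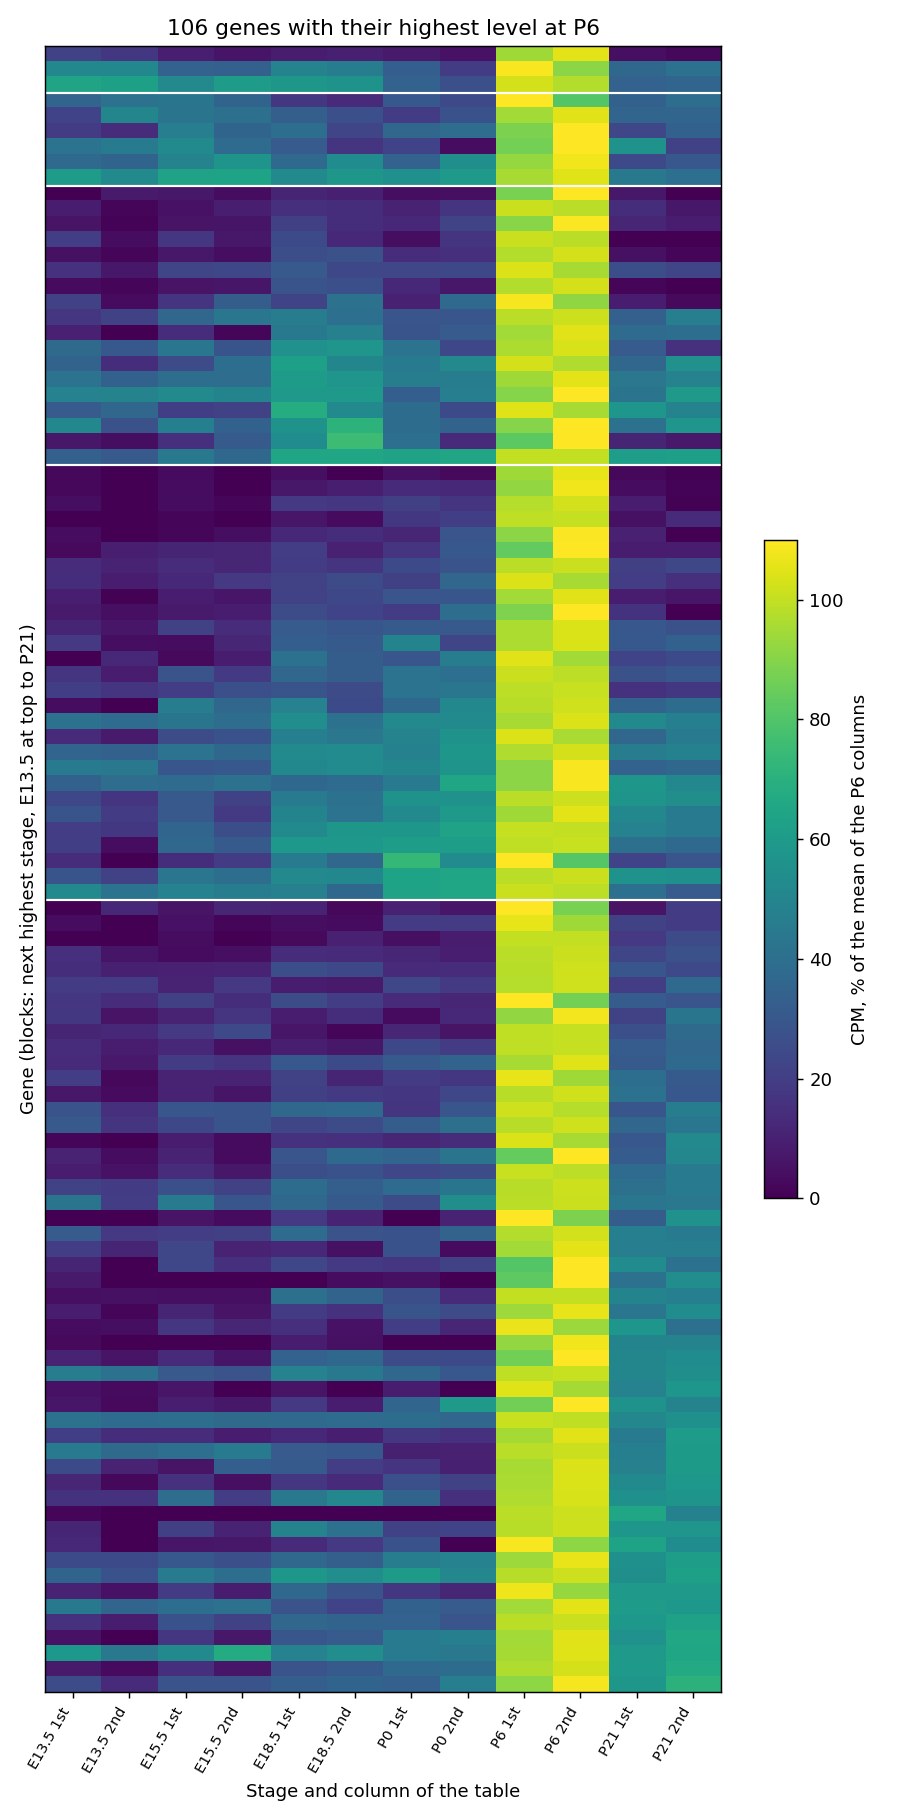
CPM of the 106 genes (rows) in the 12 columns of the table (2 per stage), as a percentage of the mean of the P6 columns of each gene, with colours saturating at 110%. White lines separate genes whose next highest stage was E13.5 (3 genes), E15.5 (6), E18.5 (18), P0 (28) or P21 (51). In every row each P6 column is above the same column (first or second) of every other stage, as the rule requires.

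The genes differed in what came before and after P6. The next highest stage was P21 in 51 genes, P0 in 28, E18.5 in 18, E15.5 in 6 and E13.5 in 3. In 34 genes the CPM was higher at each step from E13.5 to P6, and in 11 it was lowest of all at P21. The median ratio of P6 to P0 was 3.71-fold (log2 1.89) and of P6 to P21 2.52-fold (log2 1.34), against medians of log2 0.07 and 0.12 over all genes with the tag minimum. The difference was 4-fold or more to P0 in 48 genes and to P21 in 26. Between E18.5 and P0, 45.3% of the genes had the higher level at E18.5, against 53.4% of all genes with the tag minimum.

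**Figure D2:**
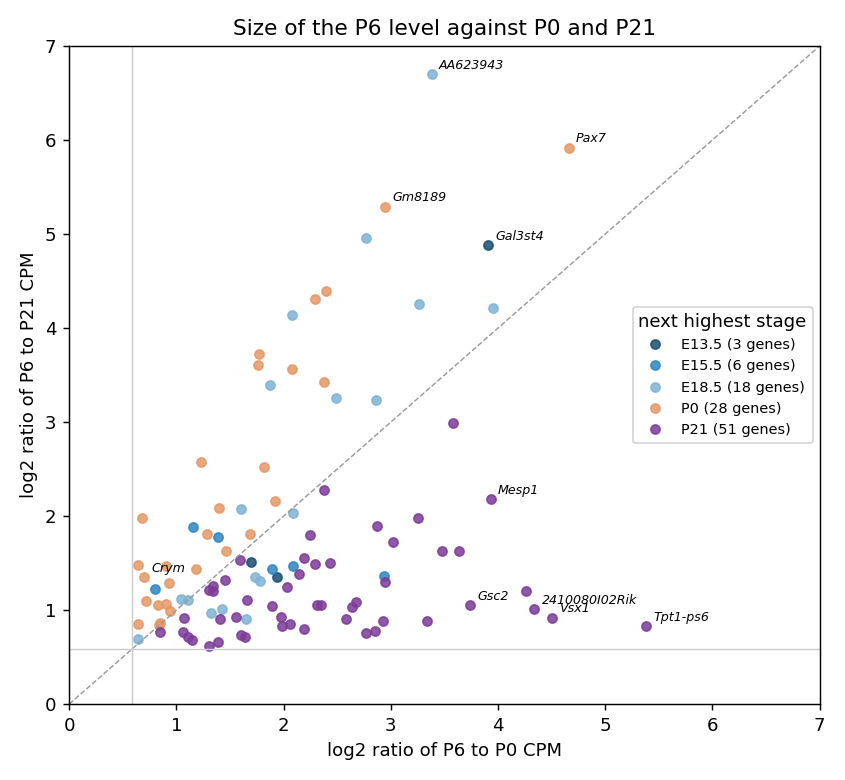
Each point is 1 of the 106 genes, with the log2 ratio of P6 to P0 CPM on the horizontal axis and of P6 to P21 CPM on the vertical axis, coloured by the next highest stage; counts under 3 tags were set to 3, grey lines mark a ratio of 1.5 and the dashed line equal ratios. The difference to P0 was the larger in 62 genes (below the dashed line) and that to P21 in 44 (above it).

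A level at P6 above all earlier stages was more common than one that was also above P21. Without P21 in the rule, 845 genes qualified, of which 12.5% were the 106 genes. Of the 845, 519 (61.4%) had a higher level at P21 than at P6. Under the same rule applied to the other stages, with the tag minimum at that stage, 964 genes peaked at P21 (9.0%), 142 at E13.5 (1.39%), 78 at E18.5 (0.706%), 31 at P0 (0.312%) and 4 at E15.5 (0.0383%). The first and the last stage have a neighbour on 1 side only, so their counts are not like those of the stages between them. The stages between them are not alike either, since spacing in time is uneven. E18.5 and P0 lie close together, whereas P6 lies far from both P0 and P21.

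**Figure D3:**
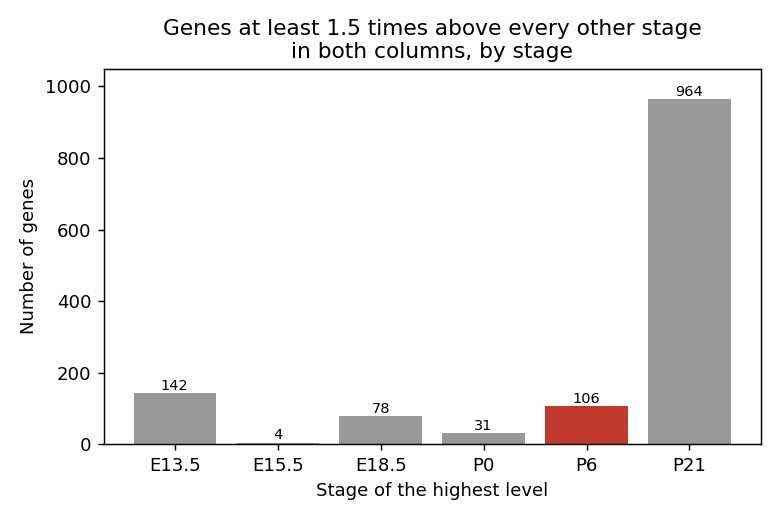
Number of genes (vertical axis, from 0) whose CPM at the stage on the horizontal axis was at least 1.5 times that of every other stage in both columns. P6 (red) had 106 genes, more than E15.5, E18.5 and P0 (4, 78 and 31) and fewer than the 2 stages at the ends, E13.5 (142) and P21 (964). Spacing in time differs between stages, so the counts are not directly comparable.

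Transcription and chromatin genes made up 16 of the 106, with a median ratio to the next stage of 1.88. (Roles were assigned by hand after the genes were known.) The most abundant was Pias3, a SUMO ligase known to act on photoreceptor transcription factors. Pias3 stood at 80.5, 93.0, 114 and 156 CPM from E13.5 to P0, at 324 (307 to 342) at P6 and at 190 at P21. Neurod4, a basic helix-loop-helix factor of differentiating neurons, had 98.6, 124, 197, 194, 304 and 188 CPM over the 6 stages. It was already at about the P21 level at E18.5, and its P6 level of 1.54 times E18.5 was among the smallest steps in the group. Insm1, a zinc finger factor of newborn neurons, had 86.0, 85.7, 77.3, 115, 180 and 64.5 CPM, lowest at P21. Jarid2, an accessory subunit of Polycomb repressive complex 2, stayed between 111 and 119 CPM from E13.5 to P0 and stood at 296 at P6 and 157 at P21. Lmo1, a LIM-only cofactor, had 64.2, 64.2, 40.2, 52.0, 158 and 94.8 CPM.

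Vsx1, a homeodomain factor of cone bipolar cells, had 5.24, 3.88, 3.65 and 5.17 CPM from E13.5 to P0, 117 CPM (107 to 128) at P6 and 61.9 at P21. Its P6 level was 22.6-fold that of P0, while P21 was within 1.89-fold (1.61 to 2.21) of it. Its low levels depend on the column: at E15.5, E18.5 and P0 the first column held 15, 17 and 17 tags and the second 0, whereas P6 held 264 and 216. Pax7, a paired homeodomain factor known from muscle stem cells and the dorsal neural tube, had few tags outside P6. There were 3, 4, 7 and 8 tags from E13.5 to P0, 253 tags at P6 (126 and 127 in the columns) and 4 at P21. At P6 this was 61.6 CPM (54.2 to 69.6), 25.3-fold (12.6 to 59.2) the level at P0, the next highest stage and the largest such ratio of the 106 genes. All its tags fell on the single site shown above.

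Several factors of this group had low levels before birth. Arid3c, an ARID-domain protein, had 0 tags at E13.5 and 30.2 CPM at P6, 5.22-fold (3.20 to 8.96) the P0 level. Mesp1, a helix-loop-helix factor of early mesoderm, had 13.9 CPM at P6 (57 tags) against 3.06 at P21 and under 1 CPM at each earlier stage. Gsc2, a goosecoid-type homeobox gene, had 12.2 CPM at P6 (50 tags, the lowest count in the group) and 5.86 at P21. Mafa, a leucine zipper factor known from pancreatic beta cells, stood at 1.52 to 2.59 CPM up to P0, 19 at P6 and 6.12 at P21. Cited1, Kansl1l, Nr6a1 and Tead3, at 38.4 to 57.2 CPM at P6, were also in the group, with ratios to the next stage of 1.54 to 2.30.

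**Figure D4:**
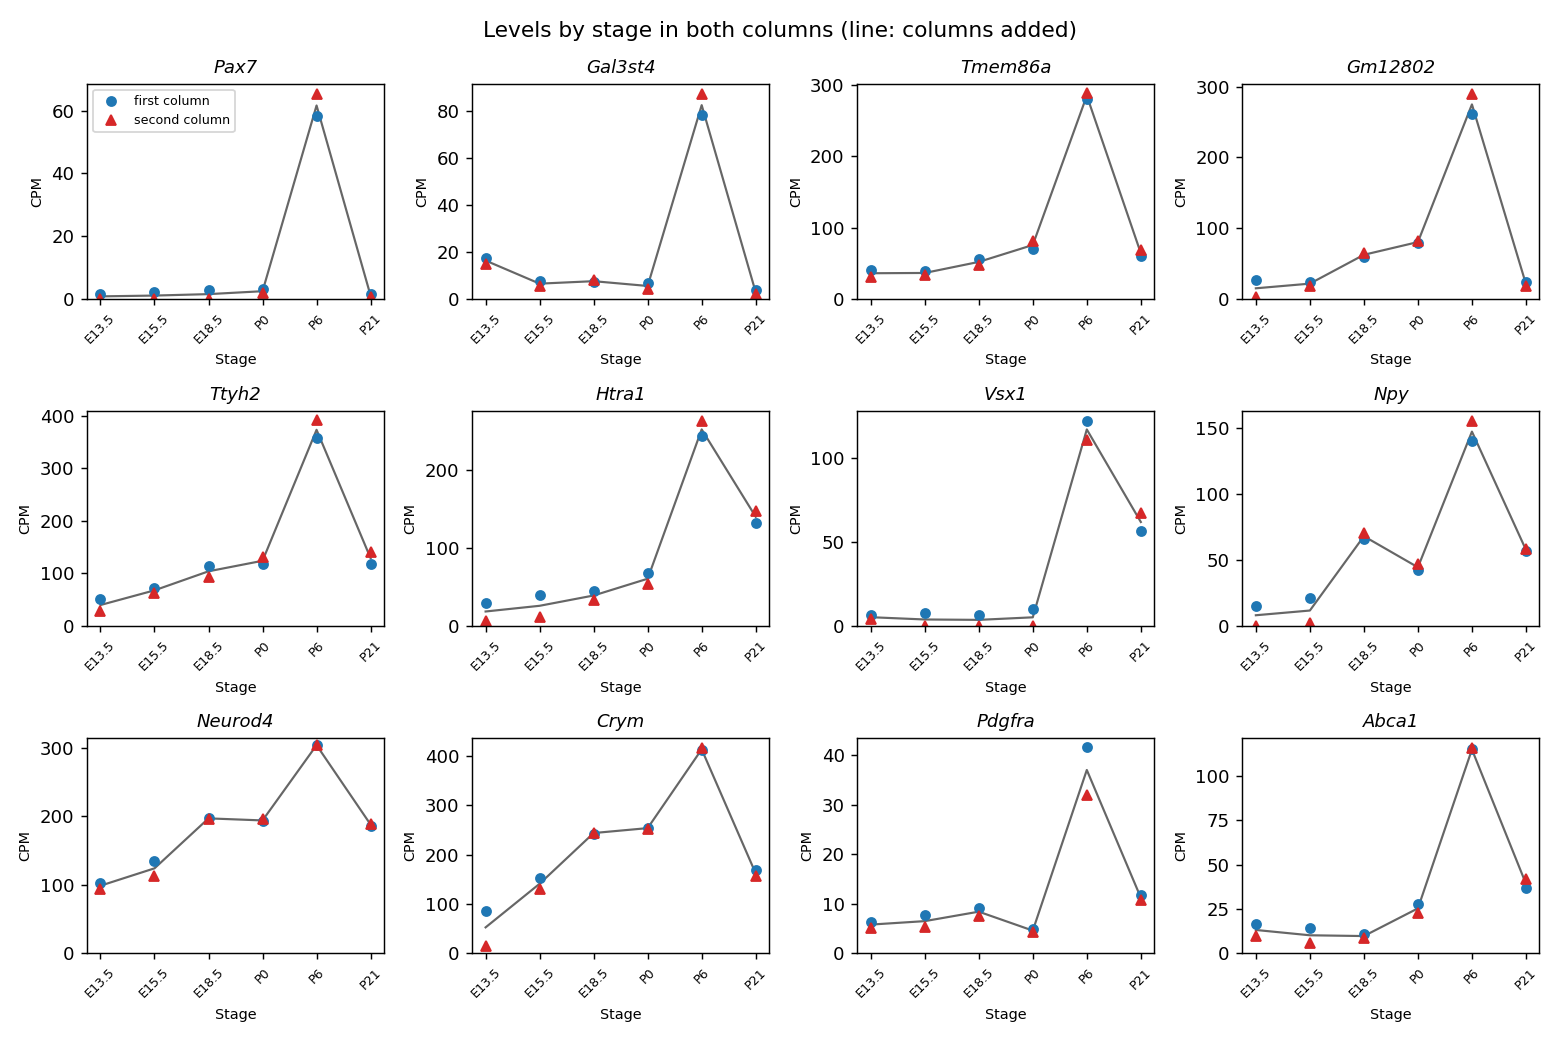
CPM (vertical axes, each from 0) by stage for 12 of the 106 genes; circles are the first column of a stage, triangles the second and the line the columns added. Pax7 and Gal3st4 returned to 1.02 and 2.80 CPM at P21, whereas Vsx1 and Htra1 stood at 61.9 and 140 CPM there.

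Genes of lipid handling, lysosomes and metabolism made up 15 and held the most abundant of all, with a median P6 level of 82.5 CPM. Crym, a thyroid hormone-binding crystallin relative known from Müller glia, had 52.4, 141, 244, 254, 414 and 162 CPM over the 6 stages. Its E13.5 level rests mostly on the first column (174 tags against 26). Tmem86a, a lysoplasmalogenase, had 35.9, 36.3, 51.8, 75.5, 285 and 64.0 CPM, so that P6 was 3.78-fold (3.29 to 4.35) the P0 level. Its P21 level was below that of P0. Abca1, the cholesterol exporter, had 9.66 to 25.3 CPM up to P0, 115 (105 to 126) at P6 and 39.2 at P21. Elovl2, which elongates very long chain polyunsaturated fatty acids, had 60.6, 61.9, 72.4, 78.2, 150 and 75.4 CPM. Cln3, a lysosomal membrane protein mutated in Batten disease, had 28.1, 32.9, 49.4, 55.4, 136 and 59.1 CPM, and Rraga, a Rag GTPase that recruits mTORC1 to lysosomes, 108, 71.7, 114, 82.2, 243 and 128.

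Gal3st4, a galactose sulfotransferase, had its other high point at the start of the series. It stood at 16.3 CPM at E13.5, at 5.48 to 7.52 from E15.5 to P0, at 82.5 (73.9 to 91.7) at P6 and at 2.80 at P21. P6 was 5.07-fold (3.86 to 6.76) the E13.5 level and 29.4-fold that of P21, and both columns show it (78.1 and 87.4 CPM at P6). Slc27a2, an acyl-CoA synthetase and fatty acid transporter, had 1.52 to 2.79 CPM up to P0, 14.6 at P6 (60 tags) and 0 tags at P21, so that P6 was at least 19.1-fold higher than P21 (floor of 3 tags in the library). Sat1, which acetylates polyamines, stood at 7.25 to 18.0 CPM up to P0, 71.0 at P6 and 19.1 at P21, a ratio to the next stage of 3.72 (2.88 to 4.86). The other 6 were Plcd1, Coq8b, Cyp2j6, Cerkl, Angel1 and Apoc1, with 12.4 to 88.6 CPM at P6. Cerkl, a ceramide kinase-like gene of retinal dystrophy, had 58.2 CPM at P6 and 32.6 at P21. All its sites lie in introns. The one with most tags at P6 (131) lies upstream of the RefSeq start of Cerkl. Its tags may therefore belong to another gene, which was not tested. The main site downstream of that start had 14.1 CPM at P6 and 17.3 at P21, so the P6 level of Cerkl is uncertain.

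Transporters, channels and receptors numbered 8. Ttyh2, a Tweety family membrane protein, had 39.9, 67.8, 104, 124, 373 and 129 CPM over the 6 stages, and P6 was 2.89-fold (2.61 to 3.20) the P21 level. Slc1a1, a neuronal glutamate transporter, had 6.03, 11.4, 30.3, 39.3, 103 and 65.0 CPM. Slc30a3, which loads zinc into synaptic vesicles, had 7.08, 17.1, 29.6, 34.1, 65.0 and 26.5. These 3 had higher levels at each step up to P6. Slc6a2, the noradrenaline transporter, was narrower in time, with 0.524, 0.777, 3.44, 5.17, 25.3 and 1.27 CPM, and P6 was 4.89-fold (2.91 to 8.72) the P0 level. Slc38a5, a glutamine transporter, Xk and the nicotinic receptor subunit Chrna5 had 18.0 to 26.5 CPM at P6.

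Secreted, matrix and surface proteins made up 18. Htra1, a secreted serine protease, had 18.6, 25.9, 39.1, 60.6, 252 and 140 CPM. Npy, the neuropeptide of amacrine cells, had 8.13, 11.7, 67.9, 44.4, 147 and 57.6 CPM. Its second column held 0 tags at E13.5 and the first 31. Nrtn, a ligand of the GDNF family, had 11.8, 13.5, 49.6, 34.7, 137 and 71.9 CPM. Npy and Nrtn share a dip at P0 after E18.5. Ptpro, a receptor tyrosine phosphatase, C1qtnf12, a secreted C1q-type protein, and Igsf21, a synaptic adhesion protein, stood at 129 to 169 CPM at P6 and within 1.68 to 1.87-fold of the next stage. Lrp4, the agrin receptor, had 1.81 to 6.23 CPM up to P0, 46.2 at P6 and 11.7 at P21, a ratio of 3.94 (2.85 to 5.57). Tnc, the matrix protein tenascin-C, had 31.6 CPM at P6 and 13.2 at P21. Itga3, Rhbdf2, Entpd2, Spon2, Adamts16 and Tmprss5 had 14.1 to 57.4 CPM at P6 and ratios to the next stage of 1.60 to 2.81.

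Genes of the cytoskeleton, trafficking and calcium handling made up 19. Trak2, an adaptor between mitochondria and motors, had 75.3, 96.3, 158, 205, 366 and 204 CPM. Its levels at P0 and P21 were close to each other. Dlc1, a GTPase-activating protein, had 32.0, 62.7, 91.1, 81.6, 255 and 155, and Arhgap31, an activator of GTP hydrolysis by Cdc42 and Rac, 22.3, 41.4, 60.8, 72.1, 176 and 50.2. Krt24, a type I keratin, had 0.524, 1.04, 1.07, 5.48, 28.5 and 5.86 CPM, and P6 was 4.86-fold (3.09 to 7.96) the P21 level. Clrn1, the gene of Usher syndrome type 3, had 3.35 to 6.66 CPM up to P0, 25.5 at P6 and 13.8 at P21. Tbc1d9 and Rabepk had 146 and 109 CPM at P6, and Necab3, Drc3, Rftn2, Camk4, Gulp1, Calml4, Phactr1, Kif9, Kif19a and Tbc1d10c 12.9 to 58.6, with ratios of 1.56 to 2.29 for these 12.

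Among 13 other coding genes, Ndrg1, known to respond to low oxygen, had 97.8, 159, 198, 246, 383 and 213 CPM, and Prob1, a proline-rich gene of little known function, 16.3, 31.6, 55.2, 55.7, 179 and 51.2. Ndrg1 had a higher level at each step up to P6, and Prob1 stood at nearly the same level at E18.5, P0 and P21. Zcchc24, Fam89a, Ifitm10, Gm42517, Erich6, Kctd11, Proser2, Rnf182 and 9130008F23Rik had 12.4 to 75.7 CPM at P6 and ratios to the next stage of 1.57 to 3.40.

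Genes without a protein product were 17 of the 106 (16.0%), against 3.96% of all genes with the tag minimum. They were 8 antisense genes, 4 lincRNAs and 5 pseudogenes. The tag minimum was set at P6, so a gene weak at other stages could pass it through its P6 level alone. The difference in shares may follow in part from this and is a description only. Of the 5 pseudogenes, 4 had low levels at P21 (0.764 to 5.61 CPM), and Tpt1-ps6 did not (21.4 CPM). Their median ratio of P6 to P21 was 31.2-fold. Gm11546 had 5.77, 9.84, 47.0, 25.6, 175 and 5.61 CPM, and AA623943 had 2.10, 4.92, 22.1, 7.61, 79.3 and 0.764 (3 tags at P21). Both had a second, lower high point at E18.5. They lie 14842 bases apart on chromosome 11 (GRCm38), on the same strand, and their transcripts are 97.2% identical over 354 bases. Each has a site 178 bases before its annotated end and one 488 or 489 bases past it, so tags may be shared between the copies and the level of either is uncertain. Their transcripts are also 80.7% and 81.3% identical to Tmem92 over 374 bases.

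Gm8189 had 0.524, 0.777, 3.22, 5.17, 39.9 and 1.02 CPM, and P6 was 7.71-fold (4.67 to 13.6) the P0 level. Its transcript is 83.2% identical to the transporter gene Slc22a19 over 506 bases. Gm6916 had 1.84, 2.07, 14.4, 15.2, 80.3 and 3.82 CPM and is 97.8% identical over 368 bases to Tma7. Tpt1-ps6 had 1 tag at E13.5, 0 tags from E15.5 to P0, 38.0 CPM at P6 and 21.4 at P21, and P6 was at least 41.6-fold higher than P0 (floor of 3 tags in the library). Its transcript is 97.9% identical to Tpt1 over 523 bases, a gene of many copies. The site of Tpt1-ps6 lies 212 bases past its annotated end, outside that stretch. Sequence there was not searched for copies, so its tags are uncertain as well.

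The most abundant noncoding gene was Gm12802, which runs antisense to Tceanc2. Gm12802 had 14.9, 21.5, 62.3, 80.3, 275 and 20.9 CPM over the 6 stages, 3.42-fold (2.99 to 3.93) the P0 level at P6 and 13.2-fold that of P21. Tceanc2 had 27.3 to 57.1 CPM over the stages and 40.9 at P6. All 4 sites of Gm12802 were 3.00 to 4.11-fold above the next stage at P6. A pair of further antisense genes lie opposite genes of the group. Gm15567 (18.0 CPM at P6, 1.02 at P21) lies antisense to Coq8b, itself one of the 106 (79.6 and 21.7 CPM), and 2310026I22Rik (18.2 and 2.29 CPM) antisense to Camk4, also one of them (24.6 and 12.2 CPM). F730016J06Rik, a lincRNA, had 14.1 CPM at P6 (58 tags) and 0.510 to 1.5 at the other stages, a ratio of 9.39 (4.28 to 24.4). The other 8 noncoding genes, Gm3764, Gm16075, Gm16062, 2410080I02Rik, Gm36208, Gm48623, Gm20632 and Gm12405, had 13.1 to 53.0 CPM at P6 and ratios of 1.64 to 4.23.

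Some of the 106 are neighbours and share sequence at their ends. Mzb1, SPATA24 and Prob1 adjoin or overlap on the minus strand of chromosome 18. Mzb1, an endoplasmic reticulum protein of B cells, had 51.3 CPM at P6 and 5.56-fold (3.99 to 7.91) the next stage, and SPATA24, named for testis expression, 28.7 CPM and 6.68-fold (4.14 to 11.3). The main SPATA24 site (chr18:35648725-35648741) lies in an intron of that gene and also inside Mzb1, so the 110 tags there at P6 can belong to either. The Mzb1 site lies at the annotated end of Mzb1, next to that of SPATA24, so its 211 tags at P6 can also belong to either. Of 94 ends searched against all other transcripts, 4 had a match of 90% identity or more over at least 60 bases. Coq8b matched Gm15567, Kansl1l matched Rpe and Mzb1 matched SPATA24 by overlap. Lyz2, the lysozyme of myeloid cells, matched its copy Lyz1 at 95.8% over 72 bases, so its 16.3 CPM at P6 is uncertain.

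The rule did not use the order of the other 5 stages, but it capped the level of each of them against P6. The test of that order is therefore a description of single genes, and the counts of the group are not independent of its choice. Leaving P6 out, 20 of the 102 genes that could be tested rose from E13.5 to P21 and 0 fell (edgeR quasi-likelihood test of a linear term for stage order, Benjamini-Hochberg adjusted p of 0.05 or less over 14362 genes). This was 19.6% and 0% of the genes, against 13.0% and 6.86% of all genes tested. At an unadjusted p under 0.05, 37 of the 102 rose and 1 fell, against 20.8% and 16.5% of all genes. DESeq2 called 32 rising and 1 falling, against 15.1% and 10.8% of all genes. The median fitted log2 change between the E13.5 and P21 ends of the fitted line was 1.17 for the 102 genes and -0.03 for all genes, and it was above 0 in 87 of the 102. Mesp1, Gsc2, Tpt1-ps6 and F730016J06Rik fell below the filter on low values.

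Among the 20 called genes, the largest fitted rises were those of 2410080I02Rik, Erich6, Vsx1, Gm3764, Gm16075, Krt24, Slc1a1 and Kif9. Of these, 2410080I02Rik had only 43 tags over the 5 libraries together, and its call was lost without E15.5 and with DESeq2. For Vsx1 the fitted log2 change was 3.98 ± 0.92 (SE, 5 libraries; edgeR adjusted p = 0.0299), and without P21 it was -0.07. For Slc1a1 it was 3.40 ± 0.55 (edgeR adjusted p = 0.0128), for Kif9, a kinesin of motile cilia, 3.29 ± 0.70 (edgeR adjusted p = 0.0244), and for Krt24 3.64 ± 0.98 (edgeR adjusted p = 0.0450). The little known gene Erich6 changed by 3.99 ± 0.92 and the noncoding genes 2410080I02Rik, Gm3764 and Gm16075 by 5.92 ± 1.59, 3.81 ± 0.89 and 3.72 ± 0.86 (edgeR adjusted p = 0.0444 or less for these 4). Among abundant genes, Htra1 rose by 3.01 ± 0.24 (edgeR adjusted p = 0.00634), Dlc1 by 2.04 ± 0.34, Ttyh2 by 1.68 ± 0.39, Trak2 by 1.61 ± 0.33 and Pias3 by 1.37 ± 0.20. The other 7 that rose were Fam89a, Entpd2, Nrtn, Slc38a5, Ifitm10, Nr6a1 and Cln3. Gal3st4 (-2.24 ± 0.64; edgeR adjusted p = 0.0527) and Insm1 (-0.17 ± 0.37; edgeR adjusted p = 0.768) did not pass.

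The calls rest on 5 libraries and on the first of them in particular. Without E13.5, 0 of the 106 genes were called, as were 0 of all genes. Without P21, 5 of the 106 and 84 of all genes rose, without E15.5, 6 and 884, and in the second columns alone, 11 and 1417. Several fitted log2 changes moved by more than 1.5 times. Without P21 that of Kif9 was 1.25, of Slc38a5 1.35, of Htra1 1.70, of Dlc1 1.35 and of Nr6a1 1.0. Without E13.5 that of Ttyh2 was 0.91, of Trak2 1.07, of Dlc1 1.29, of Gm3764 2.15 and of Erich6 2.52.

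Choice between poly(A) sites, which the rule did not use, showed no called change. Of the 106 genes, 70 (66.0%) had a single site, against 40.1% of all genes with the tag minimum. The other 36 had 92 sites, of which 78 were at least 1.5 times higher at P6 than at each other stage, and in 25 of the 36 genes all sites were. These counts follow largely from the rule, which used the sum of the same tags, and are a description only. In 33 genes a pair of sites could be compared by the distal share, the percentage of the tags of the 2 main sites that lie on the 3′ one. None of the 33 was called for a change of share with stage order by edgeR's exon usage test, and 0 had an unadjusted p under 0.05 (lowest adjusted p = 0.356). With 1 library at each stage, the test may miss changes. In Cerkl the distal share was 63.0% at P21 (53.6 to 71.5, 108 tags) and 20.8% to 30.7% at the stages before. Both of its sites lie in introns, 121412 bases apart, and the proximal one lies upstream of the RefSeq start. They may be ends of different genes, so this share need not reflect a choice of site within Cerkl. Of all 6064 pairs, 1.58% had a rising and 0.594% a falling distal share, and 958 (15.8%) had an unadjusted p under 0.05.

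At P6 itself, the distal share differed from the other 5 stages pooled by a median of 4.24 percentage points in either direction, against 3.19 points over all pairs. It was lower at P6 in 19 of the 33 genes and higher in 14, and lower in 41.9% of all pairs. SPATA24 alone differed by 20 points or more (93.2%, 87.2 to 96.5, against 42.4%), as did 1.39% of all pairs, and its distal site is the one inside Mzb1. In Vsx1, with 4 sites in the 3′ UTR, 165 of the 330 tags of the pair fell on the distal site at P6 (95% Wilson interval of the share 44.6% to 55.4%), and its share was 71.8% at P21 (64.9 to 77.9, 181 tags). The distal site had 40.1 and 33.1 CPM at these stages and the proximal one 40.1 and 13.0, so the distal site differed less between P6 and P21 than the proximal one. In Pdgfra the distal share was 46.7% at P6 (38.1 to 55.5, 122 tags) and 31.2% at the other stages pooled. Single stages ranged from 9.09% at P0 (11 tags) to 57.1% at E13.5 (14 tags), so P6 was not the highest.

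**Figure D5:**
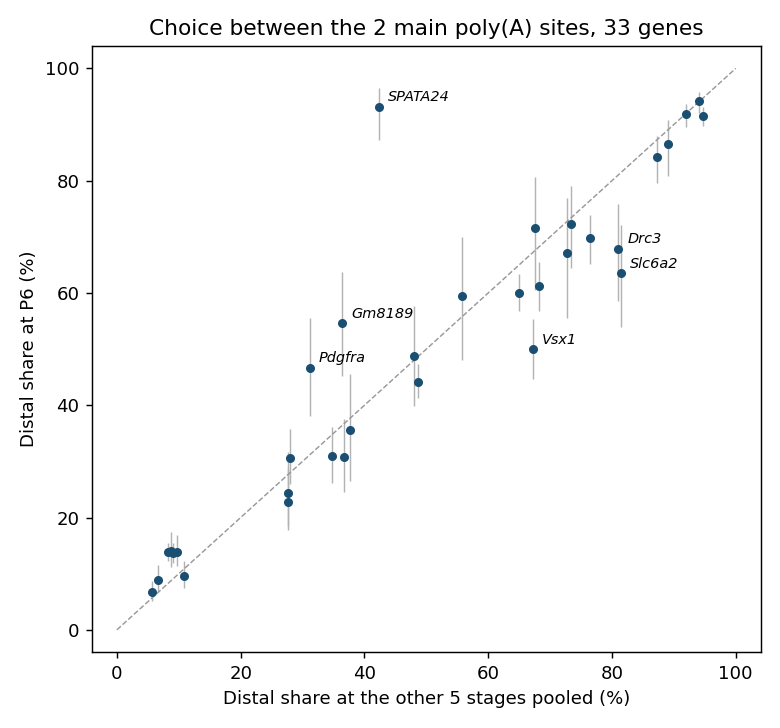
Distal share at P6 (vertical axis, percent, bars are 95% Wilson intervals) against the pooled share of the other 5 stages (horizontal axis, percent) in the 33 genes with 2 comparable sites; the dashed line marks equal shares. Most points lie near the line, and SPATA24 (93.2% against 42.4%) lies farthest from it.

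Markers of several retinal cell classes were among the 106. Neurod4 and Insm1 are on the list of 25 late progenitor and precursor genes, Vsx1 on that of 27 bipolar cell genes, Npy on that of amacrine cells (24 measured) and Crym on that of 24 Müller glia genes. None of the 25 photoreceptor and rod genes was. With 0.996% of all genes in the group, counts of 0 to 2 in lists of this size do not set a list apart. A weaker criterion, P6 the highest stage in both columns by any margin, held for 9.12% of 14174 genes. It held for 7 of the Müller glia genes (29.2%; Crym, Dbi, Nfib, Nfix, Pdpn, Rdh10 and Slc1a3), 6 of the photoreceptor genes (24.0%; Crx, Nr2e3, Otx2, Prdm1, Rom1 and Samd7), 4 of the bipolar genes (Irx6, Otor, St18 and Vsx1) and 4 of the precursor genes (Btg2, Insm1, Neurod1 and Neurod4). Except Rom1, those of the photoreceptor list are transcriptional regulators. Of 14 cone genes the criterion held for Cngb3, Gnb3 and Gngt2 (21.4%). It held for none of 23 ganglion cell genes and none of 30 cell cycle genes. The criterion is a looser form of the contrast that chose the 106 genes, so these shares are a description only.

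Over the 5 stages without P6, 19 of the 25 photoreceptor genes and 18 of the 27 bipolar genes rose and 0 fell. Of all genes tested, 13.0% rose and 6.86% fell. These calls depend on single libraries: without E13.5, 0 of all genes were called, and without P21, 84 rose. In the Müller glia list 12 rose and 2 fell, in the amacrine list 10 and 1 and in the precursor list 1 and 5. The summed level of the photoreceptor list was 4717 CPM at P0, 10437 at P6 and 14011 at P21. In the same order the bipolar list had 1224, 2022 and 3151 and the precursor list 4664, 3370 and 2205. The Müller glia list had 3756, 3977 and 4598 and the cone list 1249, 1837 and 2714. P6 lay between P0 and P21 in each of these sums. For the 106 genes the rule excludes such an order, so they offer no comparison here. The sums of the vascular, microglia and immediate early lists, given below, were highest at P6.

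Other cells of the eye are represented by single genes. Pdgfra, the platelet-derived growth factor receptor of retinal astrocytes and their precursors, had 5.77, 6.47, 8.38, 4.56, 37.0 and 11.2 CPM, and P6 was 3.30-fold (2.34 to 4.73) the P21 level. It was the only one of 6 measured astrocyte genes with its highest level at P6. That list summed to 89.9, 90.9, 116, 119, 338 and 366 CPM, and 3 of its genes rose over the other stages (13.0% of all genes tested did). Pax2 and Sox10 have no site in the table. Aplnr, the apelin receptor of sprouting endothelium, had 4.46, 3.37, 1.93, 4.87, 23.1 and 6.62 CPM, a ratio of 3.49 (2.24 to 5.61). Adm and Angpt2 were also highest at P6, while the sum of 25 vascular genes was 796 to 921 CPM in all libraries, with 921 at P6. Of the vascular genes, 3 rose and 1 fell over the other stages, beside 13.0% and 6.86% of all genes tested.

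Cd93, a surface protein of endothelium and myeloid cells, had 18.1, 18.4, 13.3, 4.26, 43.1 and 23.2 CPM, and Lyz2 7.08, 7.51, 4.08, 2.13, 16.3 and 6.37. Both were lowest at P0. The 12 measured microglia genes summed to 232, 233, 167, 132, 274 and 208 CPM over the 6 stages, highest at P6 and lowest at P0, with C1qa and C1qb highest at P6. Ndrg1 is on the hypoxia and glycolysis list with 22 measured genes, of which Adm, Ankrd37, Ldha and Ndrg1 were highest at P6. In that list 5 rose and 1 fell over the other stages, beside 13.0% and 6.86% of all genes tested. The part of astrocytes, vessels and microglia in these levels was not tested.

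Pax7, Actc1 and Casq1 are known from skeletal muscle. Actc1, cardiac alpha-actin, had 3.67, 6.47, 1.29, 2.74, 30.7 and 9.94 CPM, and Casq1, the calcium-binding protein of the sarcoplasmic reticulum, 2.36, 3.11, 4.72, 5.78, 20.4 and 3.57. A list of 24 muscle genes, added after these values were seen, had 10 with a site. The 7 besides Pax7, Actc1 and Casq1 summed to 29.9, 51.8, 49.6, 48.7, 48.9 and 53.3 CPM, so their P6 level lay within the range of the other stages. Acta1, Mylpf, Ryr1 and Des were at 12.7, 18.0, 6.08 and 5.35 CPM at P6, and Myod1, Myog, Myf5, Pax3 and Ckm have no site in the table.

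The promoters of the group were compared by short motifs. RefSeq promoter sequence (GRCm38.p6, 250 bases before to 50 after the start) matched 70 of the 106 genes and 8330 genes with the tag minimum. TAATCC, the core bound by the homeodomain factors OTX2 and CRX, occurred on either strand in 7 of the 70 and in 5.51% of the 8330. TATAAA, the TATA box core, occurred at any position on either strand in 9 of the 70 (12.9%) and in 6.13% of all. CANNTG, the E-box of helix-loop-helix factors, occurred in 42 of the 70 and in 61.4%. Distance to the start was not considered, so a TATAAA counted here need not be a TATA box. These shares are descriptions of small numbers. The promoter with most copies of TAATCC was that of Gsc2, with 3, and those of Krt24 and AA623943 had 2. The lines below show Gsc2 (chr16:17915028-17915277, minus strand) and Krt24 (chr11:99285263-99285512, minus strand). The 250 bases before each start are printed, with TAATCC, which reads GGATTA on this strand, and TATAAA in capitals.
Gsc2: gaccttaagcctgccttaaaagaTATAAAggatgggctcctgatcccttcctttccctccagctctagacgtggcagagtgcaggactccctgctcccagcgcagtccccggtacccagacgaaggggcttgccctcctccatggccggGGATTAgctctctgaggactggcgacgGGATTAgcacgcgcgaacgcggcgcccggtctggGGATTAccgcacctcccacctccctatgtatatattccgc
Krt24: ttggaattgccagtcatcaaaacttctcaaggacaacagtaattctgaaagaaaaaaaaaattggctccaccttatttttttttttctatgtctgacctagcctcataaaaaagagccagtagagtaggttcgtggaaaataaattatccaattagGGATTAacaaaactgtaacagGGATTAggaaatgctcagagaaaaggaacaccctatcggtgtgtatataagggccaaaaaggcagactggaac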

How the data were processed

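PA-seq tags were measured in 6 samples, 1 per stage. The deposited table gave raw counts of tags per poly(A) site in 12 columns, per the file headers, and an enrichment score per site, which was not used. Per the submitters' processing notes, the aligner was BWA (version 0.7.5a-r405) and the build mm10. How sites were called and scored and whether duplicates were removed is not given in the sources used here. A site was given to a GENCODE M21 gene on the same strand when its 3′ edge was inside the gene or at most 1000 bases past its end.

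CPM was taken over all tags of a column. Intervals of counts and ratios are exact 95% intervals and those of shares are Wilson intervals, for counting error only. Ratios use at least 3 tags a stage. Stage order was tested by the quasi-likelihood test of edgeR 4.0.16 (R 4.3.3, TMM scaling, genes with CPM of at least 1 in 2 libraries; 1, 2, 3, 4 and 6 for the 5 stages without P6), with the SE taken as the change divided by the square root of F. Site choice was tested with diffSpliceDGE on the 2 main sites (each at least 5% of the gene's tags, mean of at least 20 tags a library). DESeq2 1.42.0 was an alternative. Both tests were tested on simulated data. Transcript ends were aligned with BLAST 2.17.0.

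The genes and lists were chosen with earlier results of these data known. Named by rule were the 20 genes with most tags at P6, the 10 with the largest ratio, members of the lists, genes nearest the threshold and up to 8 called in each test. Others were named for their role after their values were seen. A few items are not reported here.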

Additional observations from a re-analysis of the deposited data

How the results depend on the processing

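The number of genes peaking at P6 was 75 to 132 with other tag minimums, flanks and scalings, 154 in the second columns alone and 150 with columns added first. It was 167 in the first columns alone, 47 at a ratio of 2, and 110 to 845 without a stage, an alternative chosen after seeing the data (845 without P21). Over the 5 stages without P6, the rising genes of the 106 numbered 0 to 22 without a library, 11 in the second columns and 32 with DESeq2, and the falling ones 0 and, with DESeq2, 1. Each of the 20 rising genes lost its call without E13.5, and the fitted change of Vsx1 was -0.07 without P21 and up to 4.48 without another library. Over all genes, 0 to 2331 rose and 0 to 1616 fell without a library, and 567 fell in the second columns, 2003 on a scale of days and 1547 with DESeq2. In site choice 0 of the 106 genes were called under any alternative. Over all pairs, 0 to 127 rose and 0 to 46 fell without a library, 34 and 14 in the first columns, and 23 fell in the second. The median log2 ratio of P6 to P0 was 1.82 in the first columns, and that of P6 to P21 was 1.23 in the second columns and 1.25 with TMM scaling. The cause of these differences was not tested. Fewer samples enter each fit without a library. No paired analysis was possible because each stage has 1 sample, and what R1 and R2 in the names of its columns stand for is not stated. Levels near 3 tags are limited by depth: 17 of the 106 genes had 3 tags or fewer in some stage, and 25 had tags in only 1 column of a stage.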

Other observations

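The lists of 3 further processes held none of the 106 genes, which at 0.996% of all genes does not set them apart. The shares that follow stand beside 9.12% of all genes. Of 40 genes of laminar adhesion and axon guidance, Cdh13, Cdh6, Cdh8, Cntn1 and Dscam had their highest level at P6 in both columns (12.5%), and the sum was 2450 CPM at P0, 2260 at P6 and 1826 at P21. Of 30 synaptic genes, Nrxn3, Stx1a and Syp did (10.3% of the 29 with the tag minimum), with a sum of 2976, 5133 and 6837 CPM. Of 17 immediate early genes, Btg2 and Jun did (11.8%), and the sum was 1002 CPM at P6 and 651 to 910 CPM at the other stages.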
